A study of Mus musculus with 9 samples.

Results

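The earliest response to low-intensity pulsed ultrasound (LIPUS) in this series is held by the 3 arrays of MC3T3-E1 cells taken 6 h after exposure and the 3 arrays of mock-treated control cells, which are 6 of the 9 arrays; the other 3 were taken at 24 h. MC3T3-E1 is an established preosteoblast line from the skull cap of newborn C57BL/6 mice, so that all arrays describe 1 line in culture. The cells had been grown for differentiation with ascorbic acid and β-glycerophosphate, replated, and either exposed through the dish to LIPUS at 30 mW/cm2 for 20 min and cultured for 6 h or mock treated. Whether the mock cells were cultured for 6 h or for 24 h is not given in the sources used here. Each 6 h array was set against the control array of the same number, called experiments 1, 2 and 3 below, over all 45037 probe sets that are not hybridization controls. Of these, 13819 had a mean log2 signal of 7 or more over the 9 arrays and are called well expressed. The study describes its array experiments as repeats, but whether each began from its own culture is not given in the sources used here. The p-values then measure the spread between these arrays, which may be partly technical.

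Ultrasound is a mechanical stimulus. Mechanically stimulated bone cells are known to switch on immediate early genes such as Egr1 within the first hours through MAP kinase and calcium signalling, and to respond through YAP and TAZ, which drive Ccn1 and other targets with TEAD factors. Heat shock proteins, among them the small chaperone Hspb1 that binds unfolding proteins and actin, are the usual markers of heat and of protein damage, and their genes are switched on by HSF1 at heat shock elements. Collagens, laminins and fibrillins form the matrix that preosteoblasts secrete.

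At 6 h the transcriptome lay very close to the control. No probe set passed an adjusted p of 0.05 (0.0% of 45037, limma with the experiment as a block), and the smallest adjusted p was 0.959. At an unadjusted p under 0.05, 1029 probe sets were higher (2.28%) and 546 were lower (1.21%), 1575 in all (3.5%). Gene-by-gene tests that share no variance between genes gave 53 probe sets unpaired and 998 paired at an unadjusted p under 0.05, and likewise 0 after adjustment. No probe set changed by 1.5-fold in the same direction in all 3 experiments (0.0%). A fold of 1.2 in all 3 was met by 14 probe sets upward (0.0311%) and 2 downward (0.00444%), and by 9 (0.0651%) and 0 among the well-expressed ones. At 1.3-fold 1 probe set remained, upward (0.00222%), that of Vps13a, a lipid transfer protein, and it was dim, with a mean of 5.36. The 2 downward at 1.2-fold, of Lats2, a kinase of the Hippo pathway, and Mdga2, had means of only 2.86 and 3.50. These genes were picked out after their values were seen.

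The size of these shifts can be stated. Over well-expressed probe sets the median of the absolute log2 fold change was 0.03, a fold of 1.02, and its 99th percentile was 0.21, a fold of 1.16. The largest mean difference upward was 0.56 and the largest downward -0.44, so that none reached 1.5-fold on average. The median standard error was 0.04, and for 99.6% of well-expressed probe sets the 95% confidence interval lay within 1.5-fold in both directions. For 89.5% it lay within 1.2-fold. These values include many exact ties: in experiments 2 and 3 the 6 h value equalled the control value for 27.5% and 31.2% of well-expressed probe sets and for 49.5% and 43.2% of all, against 0.282% and 1.72% in experiment 1. How such ties came about in values labelled as RMA is not given in the sources used here. Over the 7033 well-expressed probe sets without a tie the median absolute difference was 0.04 and the median standard error 0.05, with 99.5% of intervals within 1.5-fold and 84.9% within 1.2-fold. The same quantities at 24 h, against the same control arrays, were 0.06 for the median and 0.47 for the 99th percentile.

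**Figure D1:**
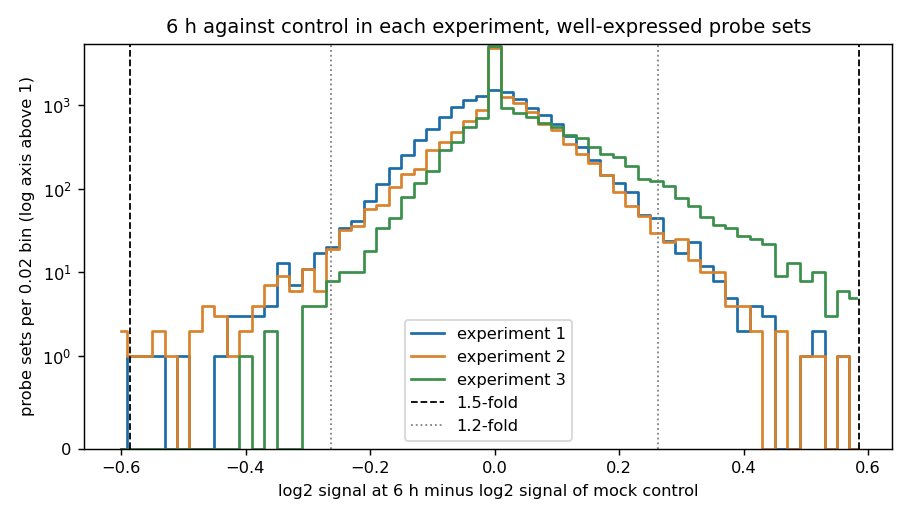
Number of well-expressed probe sets (log axis) by log2 difference between 6 h and mock control, for each of the 3 experiments. Nearly all values lie between the 1.5-fold lines, experiments 2 and 3 have a spike at exactly 0, and experiment 3 has a longer tail on the right.

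The direction of the small shifts was uneven, and it depended on the scale. With the deposited values, 2022 well-expressed probe sets were higher in all 3 experiments (14.6% of 13819) and 595 were lower (4.31%), so that 77.3% of those with 1 sign were higher. After median centring of the arrays the split was 1222 higher and 3585 lower (25.4% higher), and after quantile normalization 1400 and 3319 (29.7% higher). No excess of rises over falls can be read from these counts. Among well-expressed probe sets without a tie, centring gave 1222 higher and 1129 lower (52.0% higher) and quantile normalization 1335 and 1019 (56.7% higher). The mean difference over well-expressed probe sets was 0.01 in experiments 1 and 2 and 0.04 in experiment 3. Across these probe sets, which share their arrays and are not independent, the differences of experiments 1 and 2 correlated at r = 0.40, those of 1 and 3 at 0.21 and those of 2 and 3 at -0.05.

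The 24 genes shown first are the 12 highest and 12 lowest well-expressed ones, ranked by the weakest of the 3 experiments. They were chosen on these very differences, so their values are a description. The 12 highest were above the control on average by 0.27 to 0.51 on the log2 scale, folds of 1.21 to 1.42, and the 12 lowest had mean differences from -0.44 to -0.13. All 24 had an adjusted p of 0.959 (limma). The last gene inside the upper list, Helz, had a weakest difference of 0.23, and so did the first one outside it, Lrp1, an endocytic receptor, with 0.44, 0.49 and 0.23. Below, the first gene outside was Tnnc1. Its values are given with the genes that the study measured by PCR.

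**Figure D2:**
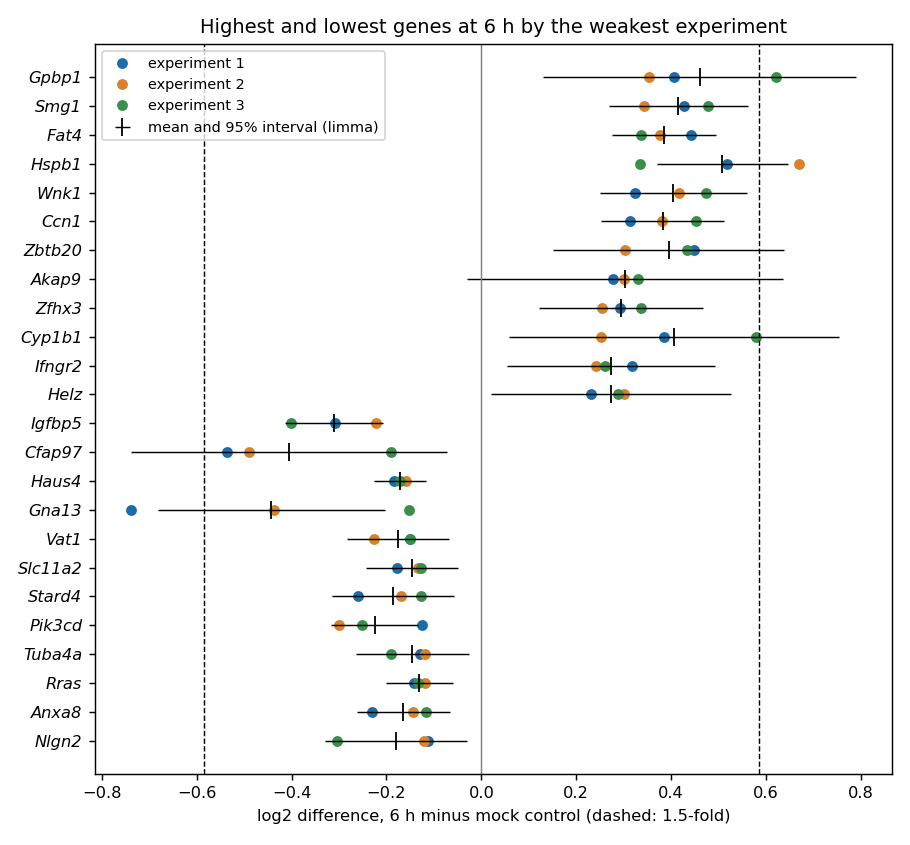
Log2 difference between 6 h and mock control for the 12 highest and 12 lowest genes, with each experiment as a point and the limma mean with its 95% interval as a black line. The points of each gene lie on 1 side of 0 in all 3 experiments because the genes were chosen so, and few points reach the dashed 1.5-fold lines.

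Hspb1 showed the largest mean difference among the 12 highest. In the control its log2 signal was 9.45, 9.57 and 9.36 in experiments 1 to 3, and at 6 h it was 9.97, 10.24 and 9.69. Every 6 h array was above every control array, which held for Hspb1 alone of the 12 and for 12 of the 13819 well-expressed probe sets (0.0868%). The mean difference was 0.51 ± 0.06 (SE, n = 3 pairs, limma adjusted p = 0.959), a fold of 1.42, and a second probe set of the gene gave 0.56, 0.62 and 0.28. At 24 h the signal was 9.13, 9.38 and 8.93, below the control in each experiment, and the mean difference of 24 h from 6 h was -0.82 on the log2 scale. That difference contains the 6 h values on which the gene was chosen and is given with no test.

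The promoters of Hspb1 and of Hsph1, a large chaperone that acts as an exchange factor for Hsp70, are shown because both belong to the heat shock genes and differed in opposite directions at 6 h. The third is that of Ccn1, a YAP and TEAD target among the 12 highest. Each line holds the 250 bases before the RefSeq start of the gene in GRCm38.p6, written 5′ to 3′ on the strand of the gene. The Hspb1 promoter lies at chr5:135887669-135887918 on the plus strand, that of Hsph1 at chr5:149636337-149636586 on the minus strand (1 of 2 starts), and that of Ccn1 at chr3:145649986-145650235 on the minus strand. Capitals mark the heat shock element letters, GAANNTTC or TTCNNGAA, and the TEAD letters GGAATG on either strand, in each of the 3 promoters.
Hspb1: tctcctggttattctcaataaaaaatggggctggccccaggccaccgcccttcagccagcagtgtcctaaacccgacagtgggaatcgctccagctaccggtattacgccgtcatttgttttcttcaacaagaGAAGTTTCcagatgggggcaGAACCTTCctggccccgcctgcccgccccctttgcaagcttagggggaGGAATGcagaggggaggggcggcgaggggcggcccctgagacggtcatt
Hsph1: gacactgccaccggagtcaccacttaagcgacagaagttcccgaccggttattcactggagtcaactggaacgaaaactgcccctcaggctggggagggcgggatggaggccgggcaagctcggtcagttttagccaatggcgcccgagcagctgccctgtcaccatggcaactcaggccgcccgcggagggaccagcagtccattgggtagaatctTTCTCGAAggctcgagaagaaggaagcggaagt
Ccn1: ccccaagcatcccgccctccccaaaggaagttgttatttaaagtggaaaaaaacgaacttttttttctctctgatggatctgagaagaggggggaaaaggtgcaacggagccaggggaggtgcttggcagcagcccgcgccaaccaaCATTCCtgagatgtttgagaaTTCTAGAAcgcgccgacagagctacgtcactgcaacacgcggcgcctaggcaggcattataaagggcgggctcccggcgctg
Hspb1 held 2 heat shock matches and Hsph1 and Ccn1 held 1 each. The TEAD letters occurred in Hspb1 and, on the reverse strand, in Ccn1, but not in Hsph1. Either order of the heat shock letters occurred in 4 of the 12 highest genes, in 1 of the 9 lowest genes with a promoter in the table, in 9 of 20 chaperone genes and in 14.5% of 27025 genes. GGAATG on either strand occurred in 2 of the 12 highest, in 3 of the 9 lowest and in 14.4% of all genes. A match in these windows is a description and not a binding site.

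Most other chaperones did not differ in 1 direction in all 3 experiments, where an exact tie with the control counts as no common sign. Fkbp4, for example, differed by -0.21, -0.18 and 0. Of 21 well-expressed genes in the list of heat shock proteins and cytosolic chaperones, 0 were called. In all 3 experiments 3 were higher (14.3%) and 4 were lower (19.0%), where 14.5% and 4.02% of all 8383 well-expressed genes were. The median difference was -0.01 against 0.01 for all genes. Hspa1b, an inducible Hsp70, differed by 0.02, -0.07 and 0 and Hsp90aa1, the inducible Hsp90, by 0.06, -0.05 and 0. Hsph1 differed by -0.14, -0.10 and -0.05, and Dnajb1, an Hsp70 cochaperone, by -0.07, 0.00 and -0.04. Cryab, a small heat shock protein like Hspb1, differed by 0.08, 0.02 and 0.08, and Hspa4l, of the Hsp110 family, by 0.02, 0.21 and 0.12. In the list of the unfolded protein response, 1 of 17 was higher and 3 were lower, among them Hspa5, the chaperone of the endoplasmic reticulum, at -0.01, -0.07 and -0.02.

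Several of the other highest genes act in signalling and at the cell surface. Wnk1, a kinase that governs ion transport, had control signals of 10.67, 10.80 and 9.37 and 6 h signals of 10.99, 11.21 and 9.84. The groups overlapped, since both arrays of experiment 3 were lower than those of the other experiments. Its difference was 0.40 ± 0.07, and at 24 h it lay below the control in all experiments, at -0.36, -0.33 and -0.02. A brighter probe set of Wnk1 differed by only 0.06, 0.07 and 0. Fat4, an atypical cadherin of the Hippo pathway, differed by 0.44, 0.38 and 0.34, and by 0.68, 0.13 and 0.87 at its second probe set. Ifngr2, a chain of the interferon gamma receptor, differed by 0.32, 0.24 and 0.26, and its other probe set was not well expressed.

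Ccn1, a secreted matricellular protein, stood on the threshold for expression, with a mean of 7.02 at the named probe set. There it differed by 0.31, 0.38 and 0.45. Its brightest probe set, with a mean of 11.18, moved by only 0.12, 0.11 and 0.09, so the size of the difference rested on the probe set. Of 16 well-expressed YAP and TAZ targets, 3 were higher in all experiments (18.8%) and 2 were lower (12.5%), with a median of 0.04. Of all well-expressed genes, 14.5% were higher and 4.02% lower, with a median of 0.01.

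The remaining high genes were regulators of transcription, RNA and the cytoskeleton. Zbtb20 and Zfhx3, zinc finger and homeobox transcription factors, had differences of 0.45, 0.30 and 0.43 and of 0.29, 0.26 and 0.34. Both were higher in all 3 experiments at most of their other well-expressed probe sets. Smg1, a kinase of nonsense-mediated decay, differed by 0.43, 0.34 and 0.48, and Helz, an RNA helicase, by 0.23, 0.30 and 0.29. Akap9, a centrosomal scaffold, differed by 0.28, 0.30 and 0.33, and Cyp1b1, an oxidase controlled by the aryl hydrocarbon receptor, by 0.39, 0.25 and 0.58. Gpbp1 differed by 0.41, 0.35 and 0.62 at the named probe set and by 0.01, 0.06 and 0 at a brighter one. Over the 12 highest genes, 15 of 22 other well-expressed probe sets were higher in all 3 experiments and 0 were lower in all.

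The control array of experiment 3 was below both other controls for each of these genes, as it was for 87.3% of all well-expressed probe sets and for 11 of 11 reference genes. Of the 12, the gap was widest for Gpbp1, at 7.51 against 9.28 and 9.51. At 24 h, 10 of the 12 were above the control in experiment 3, while 7 of the 12 were below it in both other experiments. The 24 h and 6 h differences share the control arrays and were not compared as a pattern. In the contrast of 24 h with 6 h, 909 of all probe sets passed (2.02%). The 12 were ranked on the 6 h values that enter this contrast, which favours a lower value at 24 h, and all 12 were lower there, so nothing is read from how many of them passed.

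Among the lowest genes, Igfbp5, an insulin-like growth factor binding protein of bone matrix, had control signals of 8.09, 8.19 and 8.64 and 6 h signals of 7.78, 7.97 and 8.23. The difference was -0.31 ± 0.04 (limma adjusted p = 0.959) and at 24 h the signals were nearly those of 6 h, at 7.76, 7.97 and 8.22. A second probe set of Igfbp5 with the same mean signal of about 8 differed the other way, by 0.04, 0.09 and 0.09. Gna13, a G protein alpha subunit that activates RhoA, had differences of -0.74, -0.44 and -0.15, but its brightest probe set had 0.00, -0.04 and 0.01. Cfap97 differed by -0.54, -0.49 and -0.19, and by 0.04, 0.10 and 0 at a brighter probe set.

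The other lowest genes differed by less. Haus4, a subunit of the augmin complex of the spindle, differed by -0.18, -0.16 and -0.17, and Rras, a small GTPase, by -0.14, -0.12 and -0.13. Anxa8, an annexin, was at -0.23, -0.14 and -0.12 at 6 h and far lower at 24 h, at -0.85, -0.96 and -0.89. Vat1 differed by -0.15, -0.23 and -0.15. Stard4, a sterol carrier, was at -0.26, -0.17 and -0.13, Slc11a2, an iron transporter, at -0.18, -0.13 and -0.13, and Tuba4a, an alpha tubulin, at -0.13, -0.12 and -0.19. Nlgn2, a neuroligin, was at -0.11, -0.12 and -0.30, with every 6 h array below every control array, as for 3 well-expressed probe sets in all (0.0217%). The others belonged to Lmnb1, a nuclear lamin, and Acbd6. A brighter probe set of Nlgn2 was lower in no experiment, at 0.05, 0.07 and 0. For Tuba4a a brighter probe set had no common sign, at -0.05, 0.12 and 0.04. Pik3cd, a catalytic subunit of PI3 kinase, was at -0.12, -0.30 and -0.25 at a probe set with a mean of 12.28, whereas its other probe sets had means of 2.58 to 4.94. Of 13 other well-expressed probe sets of the lowest genes, 3 were lower in all experiments and 1 was higher.

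**Figure D3:**
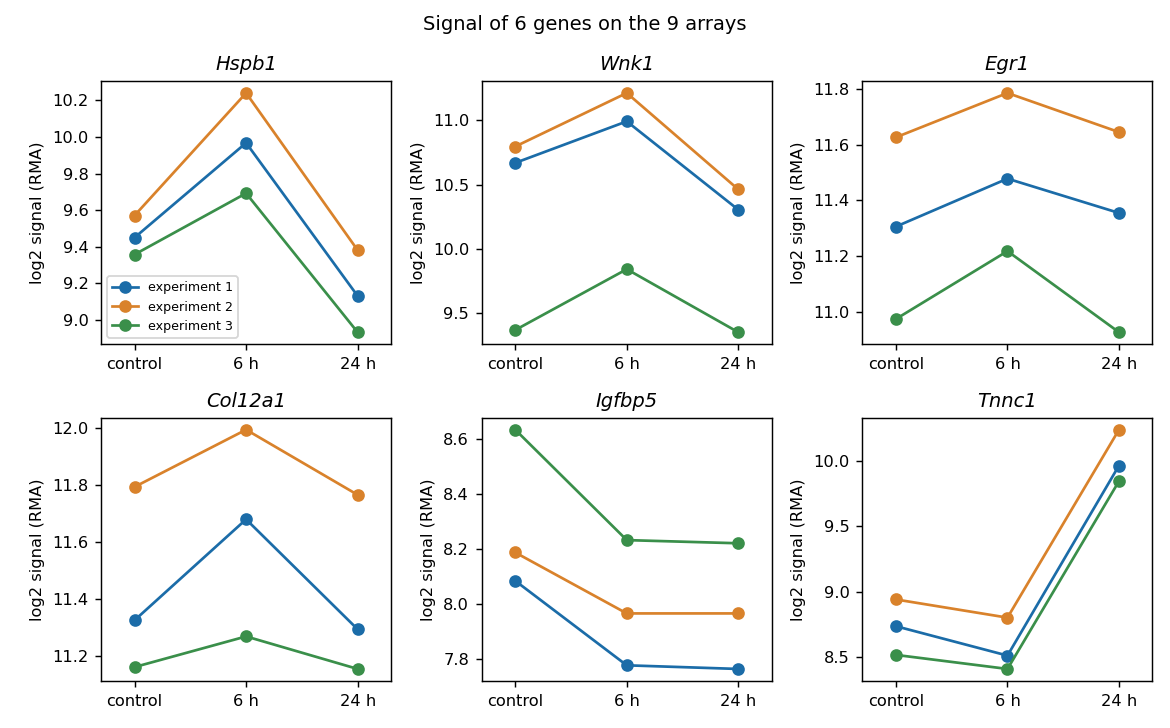
Log2 signal of 6 genes on the control, 6 h and 24 h arrays, with a line for each experiment and a separate vertical scale for each gene. Hspb1, Wnk1, Egr1 and Col12a1 peak at 6 h in each experiment, Igfbp5 is lower at both times, and Tnnc1 is slightly lower at 6 h and higher by more than 1 log2 unit at 24 h.

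Of the immediate early factors, 19 of 28 measured genes were well expressed. Of these, 5 were higher in all 3 experiments (26.3%) and 0 were lower, against 14.5% and 4.02% of all well-expressed genes. The median difference was 0.04, against 0.01 for all genes. Their mean was 0.03, 0.02 and 0.09 in experiments 1 to 3, against 0.01, 0.02 and 0.04 for all genes. None was called. Egr1, a zinc finger factor induced within minutes of many stimuli, had control signals of 11.31, 11.63 and 10.97 and 6 h signals of 11.48, 11.79 and 11.22, a difference of 0.19 ± 0.03 (limma adjusted p = 0.959, unadjusted 0.000758). Each 6 h array was above the control of its experiment, but the groups overlapped. Its relative Egr2 differed by 0.13, 0.16 and 0.10, Nr4a2, an orphan nuclear receptor, by 0.06, 0.11 and 0.24, and Myc, a growth regulator, by 0.07, 0.12 and 0.03. Of the feedback inhibitors of MAP kinase signalling, 3 of 8 were higher (37.5%) and 0 were lower, beside the same shares of all genes. Among them were Errfi1, which restrains the EGF receptor, at 0.11, 0.15 and 0.11 and Spred2, which restrains Ras, at 0.08, 0.09 and 0.17. Fos and Jun, the partners of AP-1, were singled out after their values were seen and differed by 0.05, 0 and 0.01 and by 0.00, 0.09 and 0.04.

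More of the matrix genes were above than below the control on the deposited scale. Of 17 well-expressed collagens 7 were higher in all experiments and 0 were lower (median 0.05), and of 22 matrix glycoproteins 9 were higher and 1 was lower (median 0.06), against 14.5% and 4.02% of all well-expressed genes. After median centring the medians were 0.03 and 0.04, with the median of all genes moved downward as well. Col12a1, a fibril-associated collagen, had control signals of 11.32, 11.79 and 11.16 and 6 h signals of 11.68, 11.99 and 11.27. That is a difference of 0.22 ± 0.05 with 0.35, 0.20 and 0.11 in the experiments. Fbn2, a fibrillin of microfibrils, differed by 0.33, 0.35 and 0.09, Lamb1, a laminin chain of basement membrane, by 0.16, 0.15 and 0.28, and Col6a3, a chain of microfibrillar collagen, by 0.20, 0.18 and 0.01. The major bone collagen was almost level, with Col1a1 at 0.03, 0.10 and 0.03 and Col1a2 at 0.00, 0.00 and -0.01. Of 14 matrix proteases and inhibitors 5 were higher and 0 were lower, among them the collagenase Mmp13 at 0.05, 0.17 and 0.29. The small leucine-rich proteoglycans, which bind collagen fibrils, were higher in 3 and lower in 1 of 8.

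**Figure D4:**
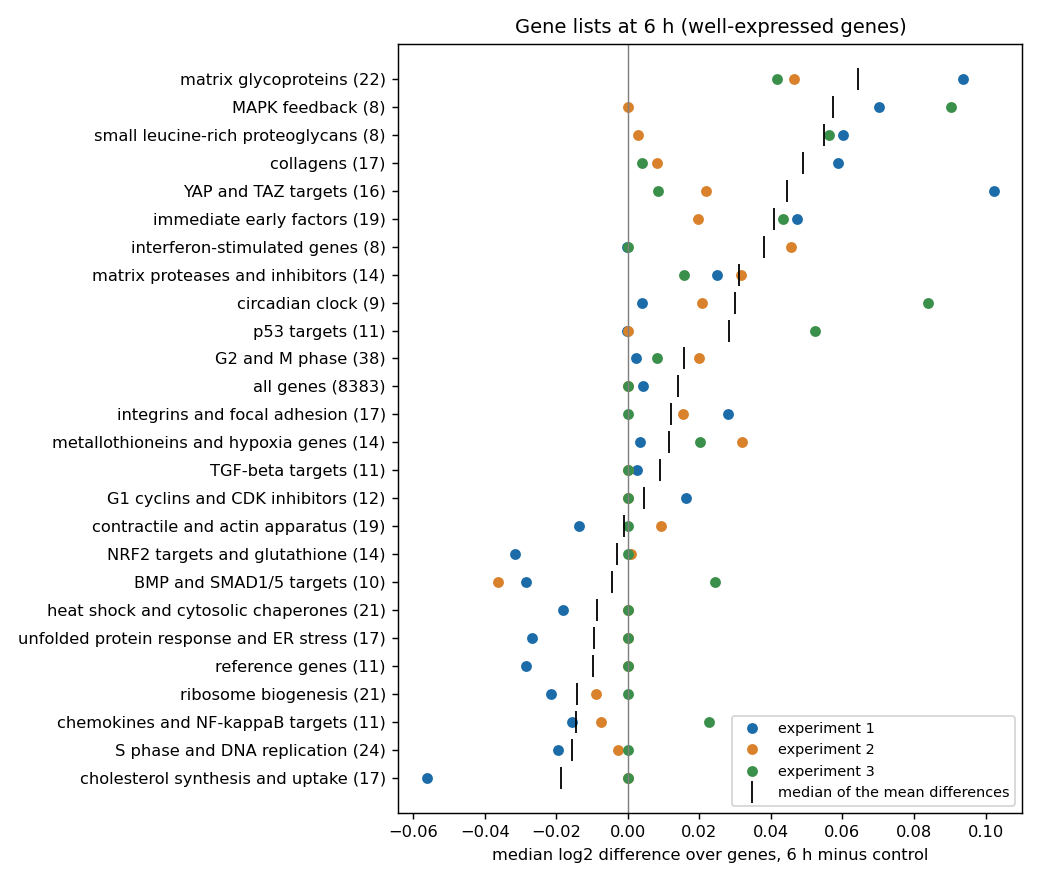
Median log2 difference between 6 h and mock control over the well-expressed genes of each list (their number in brackets), in each experiment as a point, with the median of the mean differences as a black mark and all genes among the lines. By the black marks the list medians lie near 0, and the highest is that of the matrix glycoproteins, at 0.06.

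Other groups had medians near 0. Of all well-expressed genes, 14.5% were higher in all experiments and 4.02% were lower, beside which the counts below stand. Genes of cholesterol synthesis and uptake were lower in all experiments in 3 of 17 (17.6%) and higher in 0 (median -0.02). Lss, a cyclase of the pathway, was at -0.10, -0.06 and -0.05. Of the G2 and M phase list 5 of 38 were higher and 2 were lower, among them Mki67, a proliferation marker, at 0.17, 0.25 and 0.06 and Top2a, the mitotic topoisomerase, at 0.13, 0.11 and 0.07. Ribosome biogenesis genes were higher in 4 (19.0%) and lower in 6 (28.6%) of 21, so the share lower was above that of all genes. Their median was -0.01, and Polr1a, the large subunit of RNA polymerase I, was at -0.36, -0.11 and -0.03. Chemokines and NF-kappaB targets were higher in 1 and lower in 1 of 11, and BMP targets in 0 and 1 of 10. None of these genes was called. All 32 lists with at least 3 well-expressed genes were computed, and 20 had a median above 0 on the deposited scale, but 13 did after median centring.

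The genes that the study followed by PCR were almost all near the control on the 6 h arrays. Mylk, the myosin light chain kinase, differed by 0.11, 0.16 and 0.14 and Thbs1, a thrombospondin of the matrix, by 0.16, 0.12 and 0.16, shown at a probe set that belongs to that gene alone. Znhit6, a factor of small nucleolar RNP assembly, differed by 0.09, 0.02 and 0.09. Tnnc1, a troponin C of striated muscle, differed by -0.23, -0.14 and -0.11 at 6 h and by 1.23 to 1.33 at 24 h. Of the inhibitors of differentiation, which block basic helix-loop-helix factors, Id3 was at -0.11, -0.05 and -0.09 at 6 h and Id1 had no common sign, at -0.07, 0.16 and -0.09. At 24 h Id3 was at -1.11, -1.05 and -1.10. By PCR the study found Mylk and Znhit6 significantly higher and Id1 significantly lower at the early time. In the deposited array values Mylk and Znhit6 were likewise higher in each experiment, but a fall of Id1 was not seen in each. None of these genes was called. The study's own array list, however, gives Mylk at the same probe set slightly below the control at 6 h and marks it as significant. It gives Znhit6 above the control with the same mark, and Id1 slightly below it without the mark. Why the direction of Mylk differs was not tested. The study also lists Crocc as higher and Gsn and Iqsec2 as lower at the early time, from an analysis in GeneSpring software. Whether that analysis used the signals deposited here is not given in the sources used here. The study's rule was a change of 1.5-fold or more in all 3 experiments. None met that rule in the deposited values, and Gsn was lower in no experiment at its listed probe set. A bright probe set of Gsn, with a mean of 12.46, differed by -0.09, -0.04 and 0. At the listed probe sets, Crocc, a rootlet protein of cilia, differed by 0.14, 0 and 0.03, Gsn, an actin-severing protein, by 0.07, 0.00 and 0 and Iqsec2, an exchange factor for ARF, by -0.09, 0 and 0. Their mean signals were 6.24, 3.52 and 5.71, so none was well expressed there.

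Gene length went with the 6 h difference. Among the 12 highest genes the median length in the genome was 114 kb and 7 of 12 were over 100 kb long, against a median of 25.2 kb and 12.9% over 100 kb for the 8374 well-expressed genes with a length, while the 12 lowest had a median of 14.7 kb and 0 over 100 kb. In genes under 10 kb the mean difference was -0.02, 0.01 and 0.02 in experiments 1 to 3, and in the 145 genes over 300 kb it was 0.06, 0.05 and 0.07. On the deposited scale, genes higher in all experiments made up 8.36% of those under 10 kb, 17.3% of those from 30 to 100 kb and 33.1% of those over 300 kb, and genes lower in all made up 6.18%, 3.34% and 3.45%. After median centring the shares higher were 4.31%, 9.86% and 25.5% and the shares lower 33.7%, 21.9% and 15.2%. Centring moves exact ties off 0, so that these shares lower include ties. Over well-expressed probe sets, 3585 were lower after centring but 1129 without tied ones, with 1222 higher in both. No shares by length are given without ties. Spearman's rho across genes, which share arrays and are not independent replicates, was 0.28, 0.14 and 0.12 in the experiments and 0.27 for their mean. For the mean difference at 24 h, which uses the same controls, it was 0.09. The mean difference of genes under 10 kb and over 300 kb was 0.00 and 0.06 at 6 h, and 0.01 and 0.07 at 24 h, so that the gap between these bins was not smaller at 24 h.

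**Figure D5:**
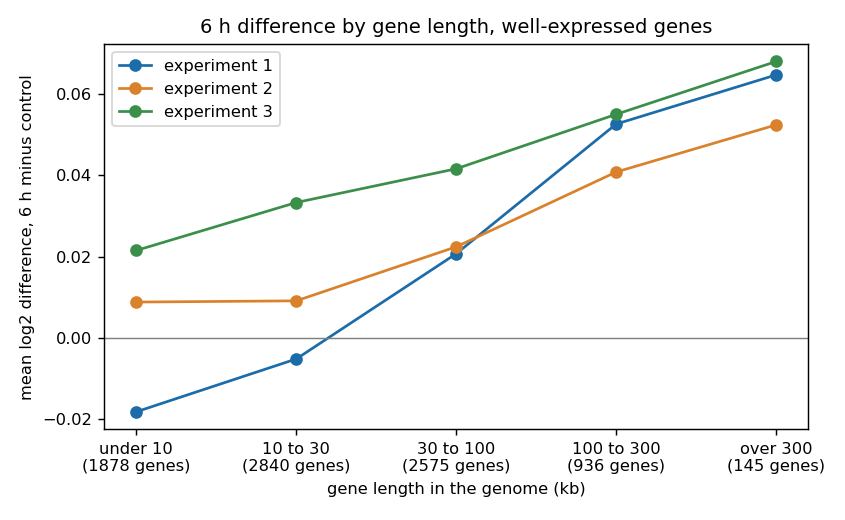
Mean log2 difference between 6 h and mock control in well-expressed genes grouped by their length in the genome, with a line for each experiment. In each experiment the genes over 300 kb lie above those under 10 kb, by 0.08, 0.04 and 0.05 on the log2 scale.

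Measures of the RNA itself were compared too. The control probe sets for 18S ribosomal RNA, which are not among the compared ones, were higher at 6 h than in the control by 0.36, 0.34 and 0.14 on average in experiments 1 to 3. At 24 h they differed from the control by -0.30, -0.26 and 0.14. The log2 signal of the 3′ over the 5′ probe set of beta-actin was 0.57, 0.54 and 0.73 in the controls of experiments 1 to 3. At 6 h it was 0.65, 0.58 and 0.75, higher in each experiment. That of Gapdh was 0.05, 0.06 and 0.48 in the control and 0.15, 0.10 and 0.47 at 6 h, higher in experiments 1 and 2 only. The part of these measures in the differences of long genes or of any gene above was not tested. Actb, the beta-actin reference, differed by -0.03, -0.02 and 0.00.

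The labelled cell type was only partly borne out by those of its markers that were measured here. Of 7 measured osteoblast lineage markers 4 were well expressed, Col1a1, Col1a2, Sparc, a matrix glycoprotein, and Dlx5, a homeobox factor. Sp7, the osteoblast transcription factor, had a mean of 6.94, Alpl, the alkaline phosphatase, of 5.07 and Ibsp, bone sialoprotein, of 3.42. Some defining markers, among them Runx2, Bglap and Spp1, were not analysed here. The study measured Bglap and Spp1 by PCR in these cells and reported alkaline phosphatase activity that rose during culture. The array markers above therefore leave out part of the evidence on cell type. No marker of macrophages (9 measured), endothelium (6) or skeletal muscle (7) was well expressed, while 3 of 15 keratinocyte, 4 of 11 chondrocyte and 1 of 8 adipocyte markers were. The log2 of the summed signal of the keratinocyte markers was 10.53 to 10.80 in the control and 10.53 to 10.78 at 6 h, and the ranges of the 2 groups overlapped for every marker list. These ranges do not use the pairing of the arrays, so nothing further is read from the overlap.

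Experiment 3 decided whether anything was called. Without it, 38 probe sets passed in limma (0.0844%), 25 higher and 13 lower. Of the 25, the difference in experiment 3 was above 0 in 20, at 0 in 3 and below in 2, with a median of 0.08, and of the 13 it was below 0 in only 3. Among the 38 were both probe sets of Hspb1 (0.59 at each, adjusted p = 0.00686 and 0.0164), Lrp1 (0.47, 0.0164), Fat4 (0.41, 0.0474), Wnk1 (0.37, 0.028), Zfhx3 (0.27, 0.0404) and Cfap97 (-0.51, 0.0304). Cyp1b1 (0.31, limma adjusted p = 0.0467) and Fbn2 (0.39, 0.0404) passed at probe sets other than those named above. The largest rise among the 38 was that of Ndrg1 (0.68, limma adjusted p = 0.028), which is not among the named genes. Without the control array of experiment 3 alone, 1 probe set passed, of Hspb1, at 0.58 (limma adjusted p = 0.0225). These fits leave fewer arrays to estimate the spread. The named genes were chosen on differences that include experiments 1 and 2, so that their passing is a description and no further support.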

How the data were processed

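RNA of the cultured cells was hybridized to whole-genome mouse oligonucleotide arrays. The authors deposited log2 signals made with RMA, per the labels, whose version and settings are not given in the sources used here. Of 45101 probe sets 64 hybridization controls were left out. The annotation of the array gave 1 symbol for 34945 probe sets, several for 932 and none for 9160. Probe sets with several or no symbols were counted and not named.

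The values were used as deposited. Differences were computed with limma 3.58.1 in R 4.3.3 (lmFit and eBayes, with the prior variance following mean signal). The fit took in all 9 arrays and the array number as a block, which left 4 residual and gave 3 prior degrees of freedom, and p-values were adjusted by Benjamini-Hochberg over 45037 probe sets at 0.05. The pairing comes from the numbers in the titles: deviations of same-numbered control and 6 h arrays correlated at 0.85, 0.82 and 0.90, and 9 of 9 arrays correlated best with one of their own number. A gene was represented in lists by its probe set of highest mean. Named genes were the 12 highest and 12 lowest well-expressed genes with the same sign in all 3 pairs, ranked by the weakest pair; the genes the study lists at 6 h or measured by PCR, at its probe sets; up to 4 genes with the same sign from each list; reference genes; and osteoblast markers. Genes and lists were chosen with earlier results of these data known. Gene lengths and promoters came from RefSeq (GRCm38.p6). The fit was tested on simulated data. Precision is limited by the 3 arrays in each group. Alternatives changed the block, trend, arrays, probe sets, normalization, weights, test, fold and signal limits; leaving out tied probe sets (also with centring or quantile normalization), and leaving out a pair from the same-sign count, were added after seeing the data.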

Additional observations from a re-analysis of the deposited data

Results flagged for a closer look

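In the contrast of 24 h with 6 h, the difference passed in limma (adjusted p under 0.05) for several named genes. All of them were chosen on arrays that enter this contrast, so that the values are a description and passing supports nothing. Of the genes chosen as high or low at 6 h, the log2 difference of 24 h minus 6 h was -0.37 for Smg1, -0.82 for Hspb1, -0.64 for Wnk1, -0.31 for Ccn1, -0.25 for Vat1 and -0.74 for Anxa8. Of the 24 genes chosen at 6 h these 6 passed, but 0 did without experiment 1 and 2 without experiment 2. Other genes were named because the study measured them by PCR, after picking them on these arrays. For these the same difference was 0.70 for Ahr, 0.78 for Cd200, 0.69 for Egr3, 0.51 for Gas6, 1.00 for Igf2, 0.68 for Lum. It was 0.65 for Matn4, 0.49 for Mylk, 0.71 for Nrep, 0.74 for Omd, 0.76 for Thbs1, 1.44 for Tnnc1, 0.44 for Znhit6 and, at its 2 probe sets, 0.97 and 0.99 for Htra1. For the inhibitors of differentiation it was -0.94 for Id1, -0.92 and -0.99 at the 2 probe sets of Id2 and -1.01 for Id3.

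The 18S ribosomal RNA control probe sets, which enter no comparison above, were higher at 6 h than in the control by 0.28 on the log2 scale on average over the 3 experiments.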

How the results depend on the processing

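The count of called probe sets at 6 h was 0 under 19 of the 21 alternatives, among them no replicate block, only the control and 6 h arrays, quantile normalization, median centring, array weights, well-expressed probe sets only, and the 13699 probe sets without ties. It was 38 without experiment 3 and 1 without the control array of experiment 3, and ranged from 0 to 38 when an experiment or an array was left out. The number at an unadjusted p under 0.05 ranged from 7 to 4905 over the alternatives. The median absolute log2 difference of well-expressed probe sets stayed between 0.03 and 0.04. At a fold of 1.3 in all experiments 1 probe set was higher, and at 1.2 there were 14 higher and 2 lower, with 0 and 0 at 1.5. The same-sign counts were 834 higher and 364 lower at a mean of 9 or more, 1222 and 3585 with median centring, and 3319 lower with quantile normalization. Without tied probe sets they were 1222 and 1129 with centring, and 1335 and 1019 with quantile normalization. Leaving out 1 experiment gave 2868 to 4028 higher and 789 to 2324 lower. Of the 24 highest and lowest genes, 6 passed between 24 h and 6 h, but 0 did with no replicate block, 3 with no trend, 1 with 1 probe set per gene and 16 with array weights. That number was 0 without experiment 1 and 2 without experiment 2, ranged from 0 to 13 when an experiment was left out and from 1 to 7 when an array was left out. The number of lists with a median above 0 was 13 with median centring against 20. Among the named genes direction turned in values near 0. With quantile normalization and median centring these were Gas6 (-0.0081 and -0.02), Id1 (-0.0293 and -0.0204), Ibsp (-0.0001 and -0.0132), Hsp90aa1 (-0.0047 and -0.0185), with quantile normalization alone Fos (-0.0031) and with centring alone Sparc (-0.0007). Leaving out an experiment turned Gas6 (-0.0253 to 0.033), Htra1 (-0.0833 to 0.0164), Id1 (-0.0799 to 0.0444), Id2 (-0.14 to 0.0179), Col1a2 (-0.0066 to 0.0011), Ibsp (-0.175 to 0.265), Dlx5 (-0.0113 to 0.0082), Hspa1b (-0.0344 to 0.0095) and Hsp90aa1 (-0.0267 to 0.0302). The replicate block changed no call of a gene at 6 h. Without experiment 3, the named probe sets of Hspb1, Lrp1, Fat4, Wnk1, Zfhx3 and Cfap97 passed, as given above. The causes were not tested. The array weights did not converge.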
